A study of Mus musculus with 30 samples.

Results

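The 10 genes described here encode enzymes that consume NAD+ or break down its precursors: the NAD+ glycohydrolases Cd38 and Bst1, the poly(ADP-ribose) polymerases Parp1 and Parp2, the nicotinamide clearing enzymes Nnmt and Aox1, the nucleotidases Nt5e and Nt5c1a, and the NAD(H) pyrophosphatases Nudt12 and Nudt13. They were chosen by what their proteins do, with earlier results of these data known, and were read by symbol from a heart table of 20764 genes and an HL-1 table of 54532 genes, and all 10 were found in both. Of the 30 libraries, 18 were from the hearts of female mice of a mixed C57Bl6J/N background (C57BL6 in the labels), with 3 hearts for each of 6 groups. Young mice were 2 months old and received no NR, and their sample titles carry the same mark (MQ) as those of old H2O mice. Old mice were 12 months old and drank plain water (H2O) or water with nicotinamide riboside (NR), an NAD+ precursor, at 3 g/l from the age of 2 months. Hearts of each kind were collected at ZT10, which is 10 hours after lights on and so late in the day, or at ZT22, late in the night. Another 12 libraries came from HL-1, a cell line from an atrial tumor of a female C57BL6/J mouse, with 3 libraries each of untreated cells, of cells given FK866, which inhibits the NAD+ synthesis enzyme NAMPT, of cells given FK866 and NR, and of cells given FK866, NR and the SIRT1 inhibitor Ex527. HL-1 is a single line. Its replicates are separate culture wells by the study's methods, while the labels do not say so, and the p-values for HL-1 measure only the spread between these libraries, which may be technical.

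NAD+ is both an electron carrier and a substrate that is used up: glycohydrolases, poly(ADP-ribose) polymerases and sirtuins each cleave it and release nicotinamide, which NAMPT recycles. CD38 and its paralog BST1 (CD157) sit on membranes, and CD38 also makes the calcium-mobilizing messenger cyclic ADP-ribose. NNMT methylates nicotinamide and aldehyde oxidases such as AOX1 oxidize the methylated product, which removes nicotinamide from recycling, while NT5E (CD73) outside the cell and NT5C1A in the cytosol dephosphorylate nucleotides, and NUDT12 and NUDT13 split NADH.

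In the GENCODE M21 annotation of the GRCm38 mouse genome, Bst1 (chr5:43818885-43843986) and Cd38 (chr5:43868553-43912375) are neighbors on the plus strand of chromosome 5, 24566 bases apart with 0 genes lying wholly between them. Parp1 lies at chr1:180568924-180601254, Aox1 at chr1:58029931-58106413, Nt5c1a at chr4:123201504-123216275, Nt5e at chr9:88327197-88372092, Nudt13 at chr14:20294697-20317578 and Parp2 at chr14:50807841-50821301, all on the plus strand. Nnmt (chr9:48591877-48605153) and Nudt12 (chr17:58999618-59013372) lie on the minus strand. Exons of Nudt12 overlap its antisense gene Nudt12os over 323 bases and exons of Bst1 overlap those of the antisense gene Fbxl5 over 98 bases. Heart reads that overlapped more than 1 gene were not counted by the study, so reads of these stretches may be missing, and the strand setting of the counting is not given in the sources used here for hearts or HL-1.

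Promoter windows of 300 bases, from 250 before to 50 after the gene start, were taken from RefSeq (GRCm38.p6) for 7 of the 10 members. The RefSeq starts of Cd38 and Nt5e lie 256 and 412 bases inside the GENCODE genes given above, so their windows do not hold the GENCODE start and are not shown. The window of Aox1, at chr1:58029719-58030018 on the plus strand, is shown because Aox1 was called with NR in FK866-treated HL-1 cells and its window holds the GENCODE start. No letters are capitalized because the searched motifs were not in it.
Aox1: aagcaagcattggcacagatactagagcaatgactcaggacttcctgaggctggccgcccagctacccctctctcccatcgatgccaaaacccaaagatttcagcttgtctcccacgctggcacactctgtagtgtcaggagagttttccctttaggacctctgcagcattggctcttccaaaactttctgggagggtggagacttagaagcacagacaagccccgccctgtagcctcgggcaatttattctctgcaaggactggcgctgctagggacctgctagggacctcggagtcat

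The Aox1 window held 7 CpGs and 54.3% G and C, against a median of 52.7% over 32851 promoter windows. The clock motif CACGTG (an E-box, its own reverse complement) was found, among the 7 windows, in those of Parp1 and Parp2 only, against 7.15% of all windows, and AGGTCA, part of the site bound by REV-ERB and ROR receptors, was in no member's window on either strand, against 16.3% of all. The stretches around the E-boxes, which are in capitals, lie at chr1:180568830-180568859 and chr14:50807725-50807754. These matches describe the letters in the windows and are not binding data.
Parp1: acctcccaaggaCACGTGctgaagccccgc
Parp2: acacgcactcagCACGTGgccccgctgatg

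Heart libraries held 3922137 to 7562215 counts and HL-1 libraries 21337922 to 35000109. Summed over 6 cardiomyocyte markers, the hearts gave 4777 to 7213 CPM (counts scaled to the TMM-adjusted library size) and the HL-1 libraries only 0.262 to 4.36 CPM, with 2 or 3 of the 6 markers at 0 in each HL-1 group. The HL-1 libraries instead held 2543 to 4142 CPM of 7 fibroblast markers and 2781 to 3547 CPM of 4 epicardium and mesothelium markers, so the labelled cardiomyocyte line lacked the defining transcripts of cardiomyocytes. Among the hearts, 2 held over 2 times the median atrial marker level of their group, young ZT10 replicate 1 (744 CPM) and old H2O ZT22 replicate 2 (530 CPM). Old H2O hearts at ZT10 ranged from 388 to 505 CPM of these markers and old NR hearts at ZT10 from 112 to 130 CPM. At ZT22, replicate 1 had the lowest total count in each of the 3 groups of mice (3922137 to 4538090) and 6680 to 7213 CPM of cardiomyocyte markers, against 4784 to 5762 CPM in the other 6 hearts.

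Per kilobase of exon, Parp1 (28.2 CPM per kb as the mean of 18 hearts) and Nt5c1a (26.8) were the members with the highest levels in hearts. Parp1 was above Nt5c1a in young hearts (28.3 against 22 at ZT10 and 25.9 against 19.8 at ZT22), whereas in old H2O hearts Nt5c1a had 29.0 and 31.2 against 28.5 and 28.0 CPM per kb. Aox1 (13.7), Nudt13 (13.0), Nudt12 (12.5), Parp2 (11.6) and Cd38 (9.74) lay in the middle with overlapping ranges, Nt5e (6.87) and Nnmt (3.23) were lower, and Bst1 was the lowest at 0.797 CPM per kb. In HL-1 cells Cd38 (55.7 CPM per kb as the mean of 12 libraries), Parp1 (41.4) and Bst1 (25.1) had the highest levels and Nt5e (1.59) was near the bottom. The libraries of Cd38 and Parp1 overlapped, and with FK866 the means were 38.8 for Cd38 and 39.6 for Parp1. Nt5c1a had 0 counts in 10 of the 12 HL-1 libraries and 1 count in each of the other 2, where 3 counts would be 0.0857 to 0.141 CPM. It was not tested in HL-1, so 9 members were.

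With age, Cd38 fell and Nt5c1a and Nudt13 rose. Averaged over both times, Cd38 transcript fell by 21.5% in old H2O against young hearts, Nt5c1a was 42.8% and Nudt13 14.6% higher, and Parp2 fell by 14.4%. In all, 4 of the 10 members passed an adjusted p of 0.05 in this comparison, against 11.8% of the 15443 genes tested. At ZT10 alone 1 of 10 passed, against 5.87% of genes, and at ZT22 alone 3 of 10, against 14.1%. Bst1, Parp1, Nnmt, Aox1, Nt5e and Nudt12 did not pass. Values are counts normalized by the trimmed mean of M-values (TMM), tests are edgeR quasi-likelihood tests with Benjamini-Hochberg adjustment, and fold changes are log2 with a standard error (SE). The SE was derived from the fold change and the F statistic of its test, and the 95% intervals from that SE.

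Cd38 separated young from old hearts. Normalized counts of Cd38 were 256, 226 and 260 in young hearts at ZT10 and 255, 254 and 259 at ZT22. In old H2O hearts they were 176, 187 and 202 at ZT10 and 197, 225 and 196 at ZT22. All 6 old H2O hearts were below all 6 young hearts, by the smallest margin between young ZT10 replicate 2 and old H2O ZT22 replicate 2. The change was -0.35 (SE 0.0665, adjusted p = 0.0015) as the mean of both times, -0.39 (SE 0.0957, adjusted p = 0.0178) at ZT10 and -0.31 (SE 0.0924, adjusted p = 0.0281) at ZT22. The mean call was kept when any 1 library or both atrial-rich hearts were left out. The fit without both atrial-rich hearts still held all old H2O ZT10 hearts, at 388 to 505 CPM of atrial markers. The remaining young ZT10 hearts had 154 and 185 CPM, and the part of atrial content in the age difference was not tested. The ZT10 call was lost without old H2O ZT10 replicate 1 or 2 or young ZT10 replicate 1 or 3 (adjusted p between 0.0644 and 0.0841) or both atrial-rich hearts (0.066), and the ZT22 call with DESeq2 (0.0672), with only the compared groups fitted (0.06), without the 3 ZT22 replicates 1 together (0.0683) and without old H2O ZT22 replicate 1 or 3 or any young ZT22 replicate (0.0505 to 0.126).

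Nt5c1a, the cytosolic nucleotidase, moved in the opposite direction. Its normalized counts were 128, 145 and 182 in young hearts at ZT10 and 146, 146 and 117 at ZT22. In old H2O hearts they were 204, 182 and 213 at ZT10 and 248, 232 and 165 at ZT22. The highest young heart (182.2 at ZT10) was about level with the lowest old H2O heart at that time (182.3), whereas the groups at ZT22 were apart. The log2 change was 0.51 (SE 0.0974, adjusted p = 0.00143) as the mean of both times and 0.63 (SE 0.137, adjusted p = 0.00395) at ZT22, and both calls were kept without any 1 library. At ZT10 it was 0.40 (SE 0.138) with an adjusted p of 0.0946 (0.0395 with only the compared groups fitted), and whether the times differed was tested directly with an interaction of -0.23 (SE 0.195, adjusted p = 0.551).

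The NAD(H) pyrophosphatases Nudt13 and Nudt12 had small positive differences with narrow errors. Nudt13 had normalized counts of 345, 353 and 335 in young hearts at ZT10 and 333, 308 and 306 at ZT22. In old H2O hearts its values were 376, 397 and 375 at ZT10 and 344, 358 and 404 at ZT22. Old H2O hearts were above young hearts at both times, and the mean change of 0.20 (SE 0.0497, adjusted p = 0.0124) was called without any 1 library. Nudt13 was also called at ZT22 (0.24, SE 0.0702, adjusted p = 0.0259), a call lost with DESeq2 (adjusted p = 0.0866), with only the compared groups fitted (0.103) and without old H2O ZT22 replicate 3 or young ZT22 replicate 2 or 3 (adjusted p from 0.0895 to 0.176). Nudt12 changed by 0.15 (SE 0.0525) with an adjusted p of 0.0718, with ZT10 means (± SD of 3 hearts) of 271 ± 7.33 in young and 303 ± 27.7 in old H2O mice, and ZT22 means of 302 ± 11.1 and 327 ± 24.1.

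The polymerases differed from each other. Parp2, a DNA break sensor, ranged from 244 to 285 normalized counts in the 6 young hearts with a median of 263, and from 200 to 243 in the 6 old H2O hearts with a median of 230, so the ranges touched but did not overlap. Its change was -0.22 (SE 0.0684, adjusted p = 0.0361), and the call was lost with DESeq2 (adjusted p = 0.0745), with no filter on low counts (0.0542) and in 9 of 12 fits without 1 library, which were those without old H2O ZT10 replicate 1 or 2, old H2O ZT22 replicate 1 or 2, any young ZT10 replicate or young ZT22 replicate 1 or 2 (adjusted p from 0.0517 to 0.105). It was also lost without both atrial-rich hearts (adjusted p = 0.0851) and without the 3 ZT22 replicates 1 (0.0628). Parp1, the main poly(ADP-ribose) polymerase, ranged from 757 to 866 in young and from 787 to 903 in old H2O hearts, a difference of 0.06 (95% interval -0.0382 to 0.154).

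Nnmt, Nt5e, Aox1 and Bst1 were not called with age. Nnmt had the largest difference of the members at ZT10, -0.70 (SE 0.216, adjusted p = 0.0609), with 21.1 to 27.9 normalized counts in old H2O against 33.4 to 48.7 in young hearts. At ZT22 it ran the other way, 0.37 (SE 0.22, adjusted p = 0.321), with 27.9 to 37.6 against 20.9 to 26.3, and the groups did not overlap at either time. As the mean of both times Nnmt differed by -0.17 (95% interval -0.487 to 0.156). Nt5e differed by 0.17 (-0.00695 to 0.351) and Aox1 by 0.06 (-0.0965 to 0.213). Bst1, at only 7 to 30 counts in each heart, differed by 0.45 with an interval from -0.0401 to 0.93. Fewer cells of a type and less RNA per cell cannot be told apart in such bulk samples. The summed level of 7 macrophage markers was 257 to 326 CPM in young and 345 to 429 CPM in old H2O hearts, that of 7 fibroblast markers 1383 to 1579 and 1259 to 1530 CPM, and that of 5 pericyte and smooth muscle markers 1059 to 1202 and 970 to 1070 CPM. The sum of 6 endothelial markers was 1381 to 1452 CPM in young and 1352 to 1381 CPM in old H2O hearts at ZT10, and 1568 to 1736 and 1342 to 1555 CPM at ZT22. Their part in these differences was not tested.

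**Figure D1:**
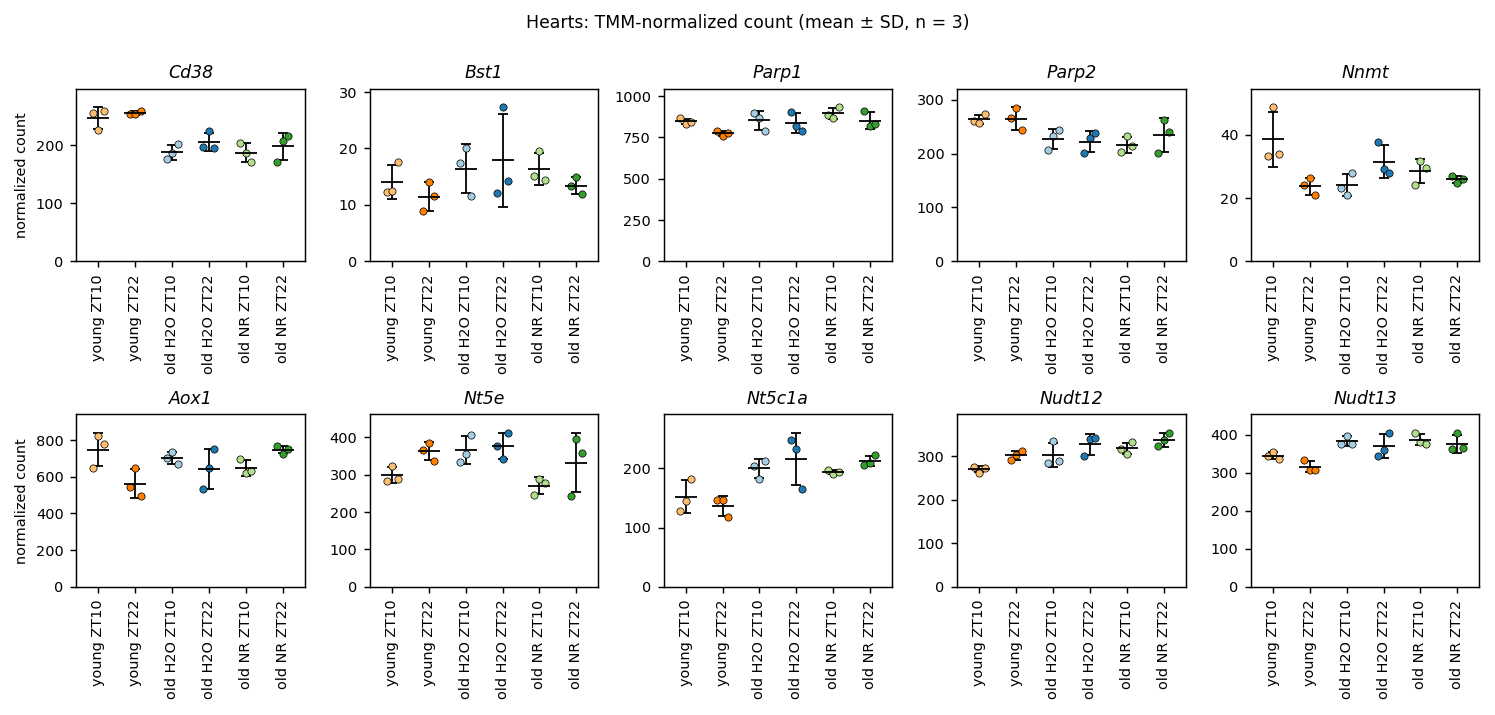
TMM-normalized counts (vertical axes, starting at 0) of the 10 members in each of the 18 hearts, by group of age, treatment and time. Points are hearts and bars the mean ± SD of 3 hearts. Cd38 is lower in all old hearts (172 to 225) than in young hearts (226 to 260), and Nnmt is highest in young hearts at ZT10.

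The same comparison was made for old mice that had received NR. In old NR hearts, 5 of 10 members were called against young hearts as the mean of both times, against 11% of genes tested: Cd38 (-0.37, SE 0.0656, adjusted p = 0.000682) and Parp2 (-0.22, SE 0.0674, adjusted p = 0.0388) fell, and Nt5c1a (0.50, SE 0.0961, adjusted p = 0.0015), Nudt13 (0.21, SE 0.049, adjusted p = 0.00646) and Nudt12 (0.20, SE 0.0516, adjusted p = 0.0151) rose. Both old groups were compared with the same young hearts, so the 2 comparisons are not independent. Cd38, Nt5c1a, Nudt12 and Nudt13 kept their calls without any 1 library, and Nudt12 was not called by DESeq2 (adjusted p = 0.0575). The Parp2 call was lost with DESeq2 (adjusted p = 0.0779), with no filter on low counts (0.0568), without both atrial-rich hearts (0.0728), without the 3 ZT22 replicates 1 (0.0797) and in 9 of 12 fits without 1 library, those without old NR ZT10 replicate 1 or 3, old NR ZT22 replicate 1 or 3, any young ZT10 replicate or young ZT22 replicate 1 or 2 (adjusted p from 0.0564 to 0.107).

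Set against old H2O hearts directly, old NR hearts had 0 of 10 members called as the mean of both times (0.337% of genes tested), 0 at ZT10 (0.285%), 0 at ZT22 (0.35%) and 0 in the interaction of NR with time (0.343%) by edgeR, and 0 in each by DESeq2. At an unadjusted p under 0.05, the counts were 1, 1, 0 and 1 of 10 members. That limit was passed by 1672, 1565, 1737 and 1584 of the 15443 genes tested. The intervals were narrow for several members. Cd38 differed by -0.02 (95% interval -0.163 to 0.116), with 205, 186 and 172 normalized counts in old NR hearts at ZT10 and 172, 208 and 216 at ZT22, all within or next to the range of old H2O hearts. Nudt13 differed by 0.02 (-0.0837 to 0.115), Parp1 by 0.05 (-0.0459 to 0.143), Parp2 by 0.01 (-0.137 to 0.147) and Nt5c1a by -0.02 (-0.205 to 0.173). Nudt12 differed by 0.05 (-0.055 to 0.155) and Aox1 by 0.04 (-0.11 to 0.193), while the intervals of Nnmt (-0.307 to 0.316) and Bst1 (-0.68 to 0.231) were wider.

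Nt5e, which makes nicotinamide riboside from its phosphate outside the cell, had the lowest unadjusted p of the members with NR. At ZT10 it had 334, 355 and 406 normalized counts in old H2O hearts and 245, 288 and 277 in old NR hearts. The groups did not overlap, and young hearts at ZT10 (284, 323 and 288) lay between them or beside old NR hearts. The log2 difference was -0.43 (SE 0.123) with an adjusted p of 0.17 over all genes, and 0.0105 when only these 6 hearts were fitted. At ZT22 the old NR hearts spread from 243 to 395 and overlapped old H2O hearts (340 to 411), with a difference of -0.15 (95% interval -0.396 to 0.0928). Fibroblast markers summed to 1259 to 1441 CPM in old H2O and 992 to 1146 CPM in old NR hearts at ZT10, beside the difference in atrial markers given above. Macrophage markers summed to 345 to 387 CPM in old H2O and 299 to 329 CPM in old NR hearts at ZT10, and to 380 to 429 and 290 to 310 CPM at ZT22. The part of these markers was not tested.

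**Figure D2:**
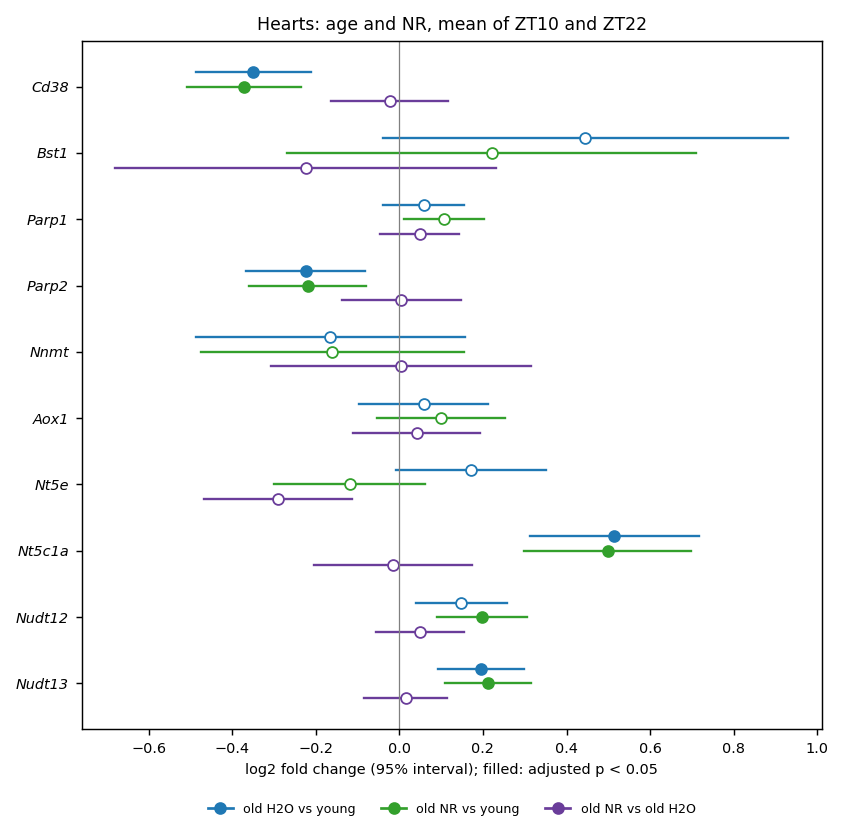
Log2 fold changes of the 10 members with 95% intervals, as the mean of ZT10 and ZT22, for each old group set against young hearts and for the 2 old groups set against each other (NR over H2O). Filled points passed an adjusted p of 0.05. Cd38 (-0.35 and -0.37) and Nt5c1a (0.51 and 0.50) are displaced from 0 in both comparisons with young hearts, and every comparison of old NR with old H2O hearts has an open point.

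In young hearts, 2 of 10 members were called with time of day, near the share of 14.4% of genes tested. They were Nnmt, 1.63 times as high at ZT10 as at ZT22, and Aox1, 1.33 times as high. By DESeq2 only Aox1 was called. In old H2O hearts 0 members were called (4.2% of genes tested, 0 members at an unadjusted p under 0.05), and in old NR hearts 0 (5.37%, 1 member), with 0 in each by DESeq2. The unadjusted limit was passed by 2731 of 15443 genes tested in old H2O and 2787 in old NR hearts.

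Nnmt had normalized counts of 33.4, 48.7 and 33.9 in young hearts at ZT10 and 24.1, 26.3 and 20.9 at ZT22, so the times did not overlap. In old H2O hearts the values ran the other way, with 23.4, 21.1 and 27.9 at ZT10 and 37.6, 29.1 and 27.9 at ZT22, the nearest hearts being level. In old NR hearts they were 24.2, 31.8 and 29.6 at ZT10 and 26.9, 24.7 and 26.2 at ZT22. The log2 difference of ZT10 from ZT22 was 0.71 (SE 0.216, adjusted p = 0.03) in young, -0.35 (SE 0.22, adjusted p = 0.442) in old H2O and 0.15 (SE 0.21, adjusted p = 0.797) in old NR hearts. The difference between young and old H2O hearts in this contrast was itself called (-1.06, SE 0.308, adjusted p = 0.04), the 1 member of 10 in that interaction against 6.89% of genes tested. These calls rested on few reads, 19 to 47 counts in each heart. The young call was lost without young ZT10 replicate 2 (0.50, adjusted p = 0.233) or any young ZT22 replicate (adjusted p from 0.0518 to 0.114), with DESeq2 (0.097), with only the compared groups fitted (0.073) and without the 3 ZT22 replicates 1 (0.0535). The interaction was lost with DESeq2 (adjusted p = 0.12), with no filter on low counts (0.053), with only the compared groups fitted (0.0657), without both atrial-rich hearts (0.0551), without the 3 ZT22 replicates 1 (0.0837), and without old H2O ZT10 replicate 1 or 2, old H2O ZT22 replicate 1 or 2, young ZT10 replicate 2 or any young ZT22 replicate (0.0518 to 0.142).

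Aox1 had 647, 821 and 776 normalized counts in young hearts at ZT10 and 544, 647 and 495 at ZT22. The lowest ZT10 heart and the highest ZT22 heart were level at 647. Its log2 difference was 0.41 (SE 0.106, adjusted p = 0.0114) in young hearts, 0.11 (SE 0.104, adjusted p = 0.639) in old H2O hearts and -0.20 (SE 0.102, adjusted p = 0.305) in old NR hearts. The interaction of age with time was -0.30 (SE 0.149, adjusted p = 0.24), so the time difference was not shown to differ between young and old H2O hearts. The call in young hearts was lost without young ZT10 replicate 2 (0.33, adjusted p = 0.0754) or young ZT22 replicate 3 (0.32, adjusted p = 0.0771).

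Nt5e was lower at ZT10 when the 3 groups of mice were averaged. It was the 1 member of 10 called there, against 13.9% of genes tested, at -0.22 (SE 0.0702, adjusted p = 0.0422). The difference was -0.28 (SE 0.124) in young, -0.05 (SE 0.119) in old H2O and -0.32 (SE 0.121) in old NR hearts, and none of these was called alone. With only the compared groups fitted, Nt5e was called in young hearts (adjusted p = 0.0466), and without the 3 ZT22 replicates 1 it was called in old NR hearts (-0.47, adjusted p = 0.00354). The averaged call was lost with DESeq2 (adjusted p = 0.0558), with no filter on low counts (0.0513), without both atrial-rich hearts (0.0667) and in 11 of 18 fits without 1 library (0.0589 to 0.112), those without old H2O ZT10 replicate 1 or 2, old H2O ZT22 replicate 3, old NR ZT10 replicate 1 or 3, old NR ZT22 replicate 2 or 3, young ZT10 replicate 1 or 3, or young ZT22 replicate 1 or 2. Endothelial markers summed to 1568 to 1736 CPM in young hearts at ZT22 and 1381 to 1452 CPM at ZT10, and their part was not tested.

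The glycohydrolases, the polymerases and the NUDT enzymes were not called with time in any group of mice with all libraries. Cd38 differed between ZT10 and ZT22 by -0.10 as the mean of the 3 groups (95% interval -0.208 to 0.0176), Parp2 by -0.04 (-0.157 to 0.074) and Nudt13 by 0.07 (-0.0148 to 0.151). Parp1, one of the members with an E-box in its window, differed by 0.08 (0.00315 to 0.159, adjusted p = 0.17), and Nudt12 by -0.12 (-0.211 to -0.0361, adjusted p = 0.0545). Without the 3 ZT22 replicates 1, Parp1 (0.12, adjusted p = 0.0232) and Nudt12 (-0.16, adjusted p = 0.015) were called in this mean.

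**Figure D3:**
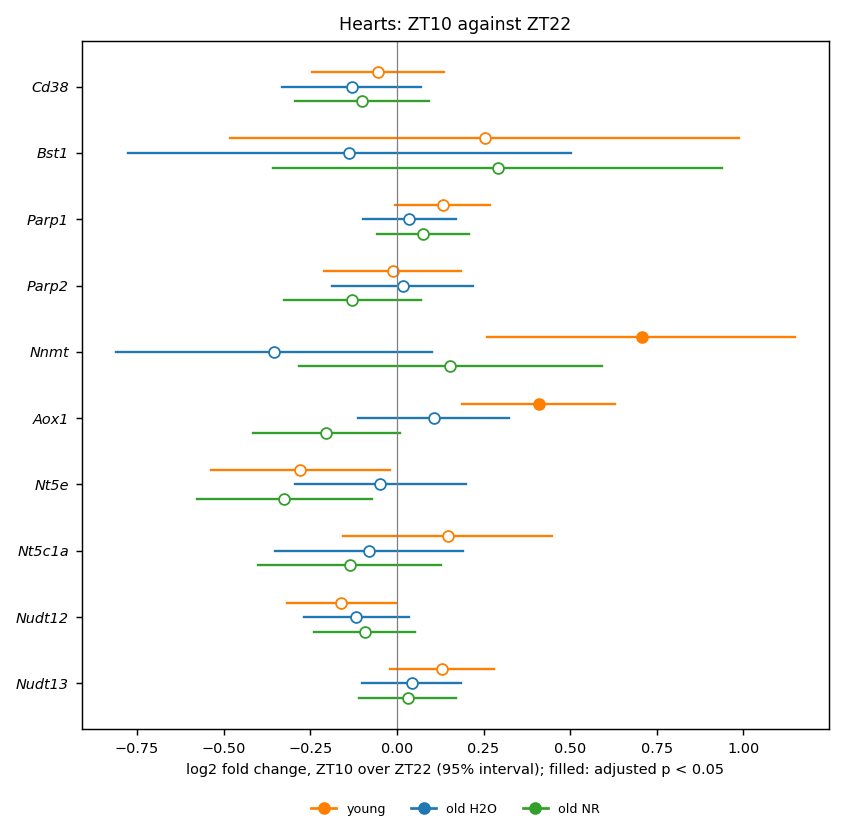
Log2 difference of ZT10 from ZT22 for each member, with 95% intervals, in young, old H2O and old NR hearts. Filled points passed an adjusted p of 0.05. Nnmt (0.71) and Aox1 (0.41) in young hearts are the filled points, and the Nnmt point of old H2O hearts lies on the other side of 0.

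In HL-1 cells, Cd38 and Nt5e fell with FK866, and both were higher, together with Aox1, when NR was given with FK866. A call in HL-1 needed an adjusted p under 0.01 and a change of at least 1.5-fold. Under that rule 2 of 9 members were called for FK866 against untreated cells (4.59% of 14760 genes tested) and 3 of 9 for FK866 with NR against FK866 alone (4.81%). The FK866 libraries are shared by both comparisons, which therefore tend to run in opposite directions.

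Cd38 had 5956, 6044 and 5970 normalized counts in untreated cells, 3749, 3981 and 4079 with FK866, and 7016, 6957 and 7320 with FK866 and NR. With Ex527 added it had 5416, 5588 and 5718. The 4 groups did not overlap, and the order from low to high was FK866, the Ex527 combination, untreated, and FK866 with NR. Cd38 fell with FK866 by 0.61 on the log2 scale (SE 0.053, adjusted p = 1.9e-06) and rose with NR by 0.85 (SE 0.0531, adjusted p = 8.42e-08). Without FK866 replicate 1 the fall was 0.57 and thus under the required fold change, although its adjusted p was 4.25e-05. Against untreated cells, FK866 with NR gave 0.24 (SE 0.0525, adjusted p = 0.0103), which missed both limits. Adding Ex527 changed Cd38 by -0.35 against FK866 with NR (SE 0.0526, adjusted p = 0.00135) and left it 0.50 above FK866 alone (SE 0.0529, adjusted p = 5.22e-05), both under the required fold change.

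Nt5e had 476, 454 and 392 normalized counts in untreated cells, 205, 234 and 220 with FK866, 373, 406 and 427 with FK866 and NR, and 331, 375 and 384 with Ex527 added. The FK866 libraries were below all others, the untreated and the FK866 and NR libraries overlapped, as did the latter and the Ex527 libraries, and the Ex527 libraries lay just below the untreated ones. Nt5e fell by 1.00 with FK866 (SE 0.101, adjusted p = 6.14e-06), to 0.498 of the untreated level, and rose by 0.87 with NR (SE 0.102, adjusted p = 2.69e-05). With Ex527 it was 0.73 above FK866 alone (SE 0.101, adjusted p = 0.00037), the 1 member of 9 called there against 1.27% of genes tested, and differed from FK866 with NR by -0.15 (95% interval -0.352 to 0.0583). These calls were kept without any 1 library.

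Aox1 had 1513, 1517 and 1161 normalized counts in untreated cells and 1266, 1140 and 1432 with FK866, which overlapped. With FK866 and NR it had 2268, 2154 and 2003, above all of these, and with Ex527 added 1817, 1962 and 1552. The difference of FK866 from untreated cells was -0.13 (95% interval -0.367 to 0.115), and the rise with NR was 0.74 against FK866 (SE 0.112, adjusted p = 0.00024). Against untreated cells it was 0.62 (SE 0.112, adjusted p = 0.00909), the 1 member of 9 called there against 0.901% of genes tested. That call was lost without untreated replicate 2 or 3 or any FK866 and NR replicate (log2 change 0.49 to 0.68, adjusted p 0.0192 to 0.0472) and with the replicate number as a block (adjusted p = 0.0143). Ex527 gave -0.27 against FK866 with NR (SE 0.11, adjusted p = 0.156).

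Among the other members in HL-1 cells, Nnmt had group means of 409 ± 85.9, 396 ± 49.7 and 390 ± 39.1 normalized counts (SD, n = 3) with FK866, with FK866 and NR and with all 3 agents, against 534 ± 18.8 untreated. Its log2 differences from untreated cells were -0.39, -0.44 and -0.46 with adjusted p-values of 0.0402, 0.0285 and 0.0283, which did not meet the rule. Bst1, the neighbor of Cd38, differed by -0.18 with FK866 (95% interval -0.33 to -0.0324) and by 0.00 with NR against FK866 (-0.151 to 0.147). Parp1 differed by -0.09 with FK866 (-0.21 to 0.0312), Parp2 by 0.09 (-0.0524 to 0.222), Nudt12 by 0.09 (-0.143 to 0.316) and Nudt13 by 0.33 (0.0389 to 0.626, adjusted p = 0.0929). With Ex527 added, 0 of 9 members were called against FK866 with NR (0.596% of genes tested, 2 members at an unadjusted p under 0.05) and 0 against untreated cells (1.42%, 3 members), with 0 by DESeq2 in both. The unadjusted limit was passed by 3430 of 14760 genes tested against FK866 with NR and 4886 against untreated cells.

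The sum of 7 fibroblast markers moved alongside Cd38 and Nt5e in these cells. It was 3780 to 4142 CPM in untreated cells, 2543 to 2683 CPM with FK866, 3769 to 3818 CPM with FK866 and NR and 3306 to 3426 CPM with Ex527 added. In each group 1 or 2 of the 7 markers were at 0. Col1a2, Col3a1 and Pdgfra alone of the 7 markers were called for FK866 against untreated cells (lower) and for FK866 with NR against FK866 (higher). Their part in these results was not tested. Macrophage markers, of cells that can hold Cd38, summed to 11.4 to 18.2 CPM in all HL-1 libraries.

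**Figure D4:**
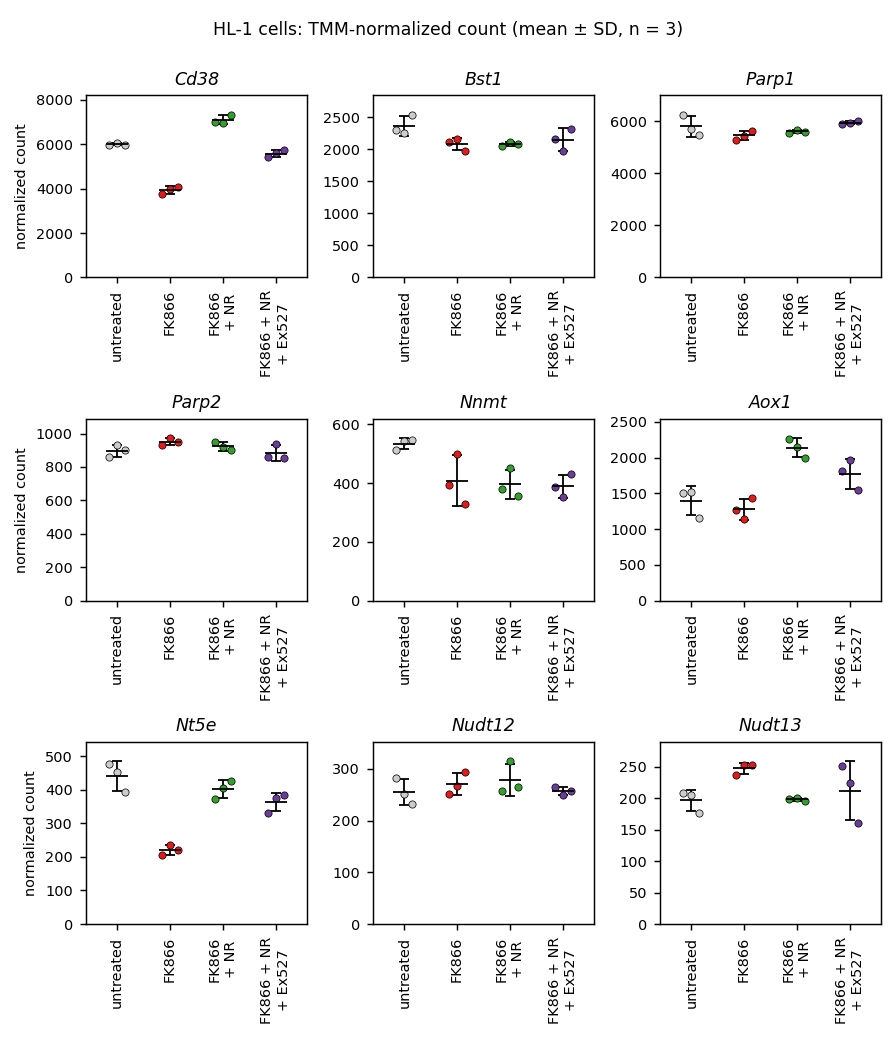
TMM-normalized counts (vertical axes, starting at 0) of the 9 members tested in HL-1 cells, for 4 groups of 3 libraries. Points are libraries and bars the mean ± SD. Cd38 and Nt5e are lowest with FK866 (3749 to 4079 and 205 to 234), and Aox1 is highest with FK866 and NR (2003 to 2268).

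Other genes of NAD+ metabolism were counted from lists. With age as the mean of both times, where 11.8% of all genes tested were called, 2 of 15 tested NAD+ synthesis genes were called, with Nmnat3, an NMN adenylyltransferase, higher (0.19) and Nmrk2, an NR kinase of muscle, lower (-0.43). Of 12 other precursor breakdown genes, 2 rose, the aldehyde oxidase Aox3 (2.01) and Enpp2 (0.56), and 0 fell. Of 7 sirtuins Sirt5 rose (0.16), of 13 other NAD+ consumers Parp6 fell (-0.24), and of 8 genes of ADP-ribose handling 0 were called. Both called genes of 12 in adenosine handling, the nucleoside transporters Slc29a1 (-0.18) and Slc29a2 (-0.35), fell. Of 8 genes of methyl donor supply Ahcyl2 rose (0.24), and of 6 targets of cyclic ADP-ribose and its relatives the channel gene Tpcn1 rose (0.18). The medians of these lists lay between -0.03 and 0.06, except 0.32 for the 6 cyclic ADP-ribose targets, and that of all genes was -0.01. With NR in old hearts as the mean of both times, 0 genes of any of these lists were called. The interaction of NR with time, called for 0.343% of genes tested, was called for Nmrk2 (1.17, SE 0.223, adjusted p = 0.0201). Its difference of ZT10 from ZT22 was -0.58 in old H2O and 0.58 in old NR hearts, both called.

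In HL-1 cells with FK866, where 4.59% of all genes tested were called, 3 of 9 tested genes of other precursor breakdown fell, Aox3 (-1.07), Enpp1 (-0.99) and Enpp3 (-0.64), and all 3 rose with NR against FK866 (1.18, 1.03 and 0.69), where 4.81% of all genes were called. Enpp1 and Enpp3 are ectoenzymes that hydrolyze nucleotides outside the cell, as NT5E does. Of 14 other NAD+ consumers, Parp14 rose with FK866 (1.17) and fell with NR (-0.68). Of 7 sirtuins Sirt1 rose with FK866 (0.70), and of 12 NAD+ synthesis genes Naprt fell (-0.71). Neither was called for FK866 with NR against FK866. Where the study describes NR response genes, it reports that Sirt1 missed its fold-change limit. In the lists of ADP-ribose handling, adenosine handling and cyclic ADP-ribose targets, 0 of 8, 0 of 8 and 0 of 2 tested genes were called with FK866. Aox3 also fell when Ex527 was added to FK866 and NR (-0.76).

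The genes whose log2 CPM followed a member most closely over the 18 hearts were Cpsf7 (Pearson r = 0.885), Tceal8 (0.862) and Slc38a4 (0.856) for Cd38, and Pdpr (0.891), Specc1l (0.878) and Hipk2 (0.874) for Nt5c1a. For Nudt13 they were Aspa (0.892), Wfikkn2 (0.892) and Man2b2 (0.873), and for Parp2 Alcam (0.911), Casq1 (0.891) and Cacna1g (0.876). Nnmt had lower values, with Wnk4 (0.746), Plscr3 (0.744) and H6pd (0.74). The first gene was Pcnt (0.89) for Aox1, Vcan (0.843) for Nt5e and Etv3 (0.875) for Nudt12. The hearts share groups of age and time, so these values describe the libraries and were chosen as the highest of 11074 genes (11075 for Nnmt). Among the members themselves, Cd38 and Parp2 had r = 0.772, and Cd38 and Nudt13 had r = -0.71.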

How the data were processed

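RNA was measured in 18 hearts and 12 HL-1 libraries, 3 in each group of the labels. For the hearts the authors deposited counts per gene and a score, these counts divided by size factors and rounded. The names of both heart tables are exchanged: the table called normalized holds the whole counts, and the ratio of the tables within each library matched DESeq2 size factors to 1.35e-05. The score table was used for gene symbols and this check. For HL-1 the authors deposited counts, used here, and FPKM, not used. Heart reads were trimmed with Trimmomatic 0.39 and aligned with STAR 2.7.10a, duplicates (Picard 3.0.0) and multi-mapping, ribosomal and mitochondrial reads were removed, and reads over exons of a single gene were counted with featureCounts 2.0.4. HISAT2 aligned the HL-1 reads, and its version is not given in the sources used here.

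Counts were tested with edgeR 4.0.16 (R 4.3.3; TMM, quasi-likelihood F-test, two-sided, Benjamini-Hochberg), with all hearts or all HL-1 libraries in 1 fit and a mean per group. Heart genes with an average count above 5 were tested (15443), and for HL-1 those kept by filterByExpr (14760). DESeq2 1.42.0, its size factors, no filter, fits of only the compared groups, a replicate block and fits without each library were alternatives. On simulated counts, 197 of 200 genes changed by 1 log2 unit were recovered for old H2O against young hearts at ZT10, with 10 false calls among 15443 genes. For FK866 against untreated HL-1 cells 188 of 200 were recovered, with 0 false calls among 14760 genes. The changed genes were drawn only from genes with higher average counts than Bst1 and Nnmt had in hearts. Smaller changes, such as those of most members in hearts, were not simulated, so these shares do not give the power to call them. All 10 members are described, though not each with a value in every comparison, and listed genes only by counts and called values. The methyl donor list in HL-1 cells is not reported here. The members, lists and tests were chosen with earlier results of these data known. Bst1 and Nnmt had few counts in hearts.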

Additional observations from a re-analysis of the deposited data

Results flagged for a closer look

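Nnmt, the nicotinamide N-methyltransferase, had a difference between ZT10 and ZT22 that itself differed between young and old H2O hearts by edgeR's interaction term (-1.06, SE 0.308, adjusted p = 0.04, n = 3 hearts in each of 4 groups). It was higher at ZT10 in young hearts (38.7 ± 8.71 against 23.8 ± 2.7 normalized counts, SD) and lower at ZT10 in old H2O hearts (24.1 ± 3.46 against 31.5 ± 5.31). Old NR hearts lay between (28.6 ± 3.91 against 25.9 ± 1.1), and their interaction with old H2O hearts was not called (0.51, SE 0.305, adjusted p = 0.601). The interaction in young and old H2O hearts was not called by DESeq2 (adjusted p = 0.12) or without young ZT10 replicate 2 (-0.85, adjusted p = 0.142), among the other libraries named with this result above.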

How the results depend on the processing

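Of the 24 calls of a member in a comparison, 12 were kept in every alternative fit, not counting the fits chosen after seeing the data. Among the 12 were Cd38, Nt5c1a and Nudt13 with age as the mean of both times and Cd38, Aox1 and Nt5e for FK866 with NR against FK866. No called member changed direction in any alternative. With DESeq2 the members called were 1 for time in young hearts, 0 for time as the mean of the groups, 1 for old H2O against young at ZT22, 0 for the interaction of age and time, 3 for old H2O against young as the mean of both times, and 3 for old NR against young. With no filter on low counts they were 0 for time as the mean of the groups and 0 for the interaction of age and time. The Parp2 calls of both old groups against young hearts were also lost without the filter. With only the compared groups fitted the members called were 3 for old H2O against young at ZT10 (Cd38, Nt5e and Nt5c1a), 1 at ZT22, 0 for the interaction of age and time, and 1 for old NR against old H2O at ZT10. That fit was not possible for time as the mean of the groups, which uses all of them. With both atrial-rich hearts left out, an alternative chosen after seeing the data, they were 0 for time as the mean of the groups, 0 for old H2O against young at ZT10 and 0 for the interaction of age and time. As the mean of both times they were then 3 for old H2O against young and 4 for old NR against young. With replicate 1 of each ZT22 group left out, also chosen after seeing the data, they were 1 for time in young hearts, 1 in old NR hearts, 3 as the mean of the groups, 2 for old H2O against young at ZT22, and 0 for the interaction of age and time. With an adjusted p of 0.05 and no minimum fold change in HL-1 cells they were 3 for FK866 with NR against untreated, and with Ex527 added 1 against FK866 with NR, 3 against FK866 and 2 against untreated. Under that rule Nnmt was also called for FK866 against untreated cells. Some smaller changes in these counts are not listed. The share of all genes called in each alternative is not given here, so these counts cannot be set against a general change in calls. The cause of these changes was not tested.

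Without 1 library each, the members called ranged from 0 to 2 for time in young hearts, 0 to 1 in old NR hearts and 0 to 2 as the mean of the groups, from 0 to 1 for old H2O against young at ZT10 and 1 to 3 at ZT22, from 0 to 1 for the interaction of age and time, from 1 to 2 for FK866 against untreated and from 0 to 1 for FK866 with NR against untreated. The call in old NR hearts was Nt5e without old NR ZT22 replicate 1 (-0.47, adjusted p = 0.0046). Comparisons with smaller changes, and the share of all genes called in each of these fits, are not given here.

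The replicate numbers were not taken to pair samples, because only 5 of 45 same-numbered pairs of hearts and 3 of 18 of HL-1 libraries had a correlation over 0.1 in their deviations from the group means. The median correlation of same-numbered pairs was 0.023 in hearts and 0.0135 in HL-1, against -0.0157 and -0.00153 for pairs with different numbers. By mean correlation, 10 of 18 hearts and 7 of 12 HL-1 libraries were closest to their own number. No chance value was computed for these counts. With the replicate number as a block, 0 members were called for FK866 with NR against untreated (Aox1 0.62, adjusted p = 0.0143), and no other count changed. Bst1 and Nnmt in hearts and Nt5c1a in HL-1 cells had few counts.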
